A study of Mus musculus with 8 samples.

Results

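The genes described here carry the interferon signal from outside the cell to the kinases beneath the membrane: the ligands Ifnb1 and Ifng, the receptor chains Ifnar1, Ifnar2, Ifngr1, Ifngr2 and Il10rb, and the Janus kinases Jak1, Jak2 and Tyk2. Every probe set annotated to exactly 1 of these 10 symbols was taken, which gave 19 probe sets of 45101 on the array, and 10 genes of the 18194 that such probe sets name. Microvessel fragments with their attached pericytes were pulled from dissociated brains at postnatal day 1 with beads carrying an antibody against PECAM, an endothelial surface protein, and their RNA was hybridised to 1 Affymetrix array per brain. The 4 mutant brains carried the D849V knock-in of the gene for PDGF receptor beta, PDGFRb (D849V), which makes that receptor constitutively active in pericytes. The 4 control brains were wild type at this gene, and both groups were of a mixed 129S/J background. No label states the zygosity of the allele or a Cre driver, and the fragments hold endothelial cells together with pericytes. The labels call the replicates biological, so p-values measure the spread between brains.

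Type I interferons such as interferon beta bind a receptor of paired chains, IFNAR1 and IFNAR2, whose inner tails hold the kinases TYK2 and JAK1, and interferon gamma binds IFNGR1 and IFNGR2, which hold JAK1 and JAK2. The kinases phosphorylate STAT proteins, which enter the nucleus and turn on interferon-induced genes, among them genes for inhibitors that act back on the receptors and kinases. IL10RB is the shared chain of the receptors for interleukin 10 and for interferon lambda, and brain endothelial cells, pericytes and microglia are all able to respond to interferons.

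The comparison asks which steps of this input side of the pathway differ at the RNA level in vessels with an always-active PDGF receptor beta. No member passed the test in either direction. Of the 19 member probe sets, 14 from 8 genes exceeded a log2 value of 4 on at least 4 arrays and were tested, and 0 had an adjusted p under 0.05 with limma, against 2.63% of all 22310 probe sets tested (586), made up of 1.85% that were higher in mutants and 0.78% that were lower. At an unadjusted p under 0.05 there were 2 of 14 (14.3%), an Ifnar1 and a Tyk2 probe set, both lower in mutants, against 16.3% of all probe sets tested (3647). The same 2 were the probe sets whose mutant and control values did not overlap (14.3%), against 11.3% of all probe sets. The differences, always mutant minus control on the log2 scale, ran from -0.51 to 0.42, with 7 below 0 and 7 above, and a median of -0.04 beside a median of -0.08 over all probe sets tested. Their median size without sign was 0.30, against 0.18 for all probe sets tested. For 11 of the 14, the 95% interval of the difference lay wholly within 1 log2 unit of 0 on either side.

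**Figure D1:**
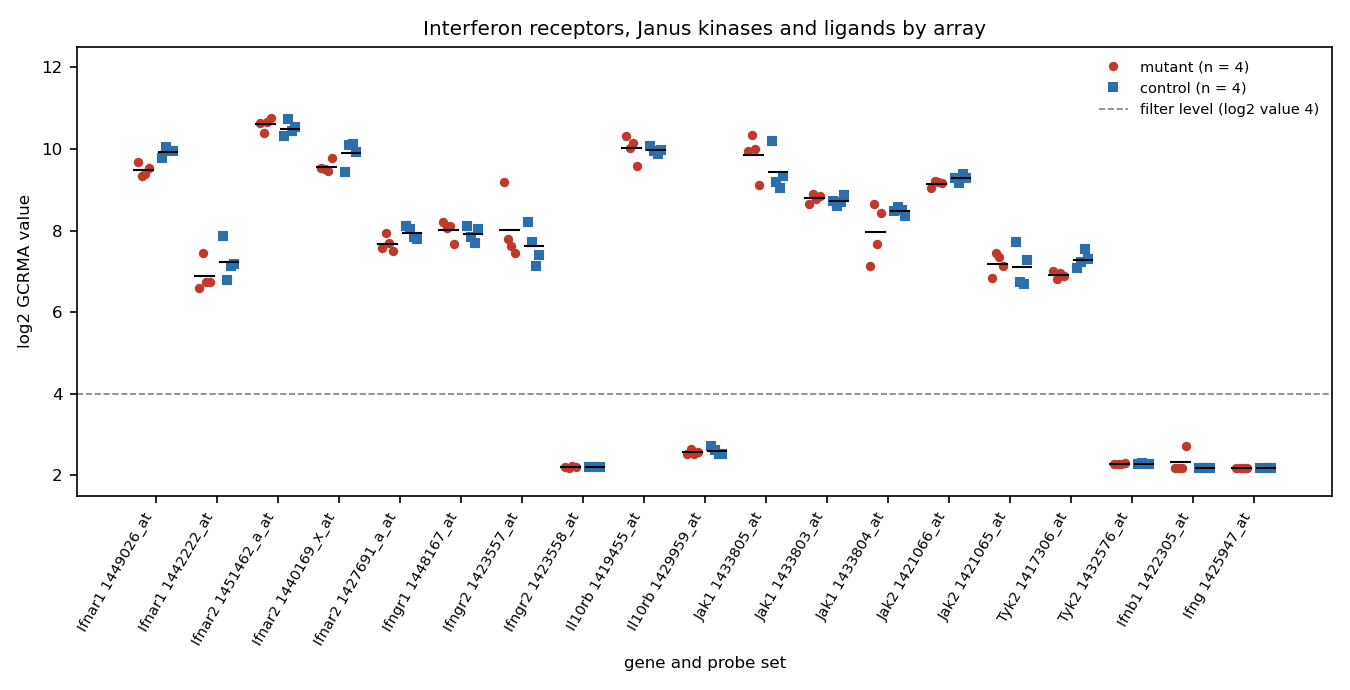
Deposited log2 GCRMA values (vertical axis) of all 19 member probe sets (horizontal axis) on the 4 mutant arrays (circles) and the 4 control arrays (squares), with short lines at the group means and a dashed line at the filter level of 4. The mutant and control values are apart for Ifnar1 1449026_at and Tyk2 1417306_at, and Ifnb1 and Ifng lie at 2.18 to 2.72 on every array.

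Neither ligand was detected. Ifnb1, the type I interferon made early in antiviral responses by many cell types, read 2.72 on mutant array 4 and 2.18 on the other 3 mutant arrays, against 2.18 on all 4 control arrays. That lowest value of the whole table, 2.18, is a floor at which dim probe sets collect, and the value of mutant array 4 was also below the filter. Ifng, the interferon of T cells and natural killer cells, lay at 2.18 to 2.19 on all 8 arrays. A probe set at the floor gives no bound on how little RNA was present, and ligand RNA of cells left behind in the preparation would not be seen.

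The other interferon genes gave little more. Of 19 further interferon genes (the alpha family, Ifnab, Ifnk, Ifne, Ifnz, Ifnl2 and Ifnl3), 8 had a probe set annotated to them alone, and the other 11 were not analysed here. Of these 8, 6 lay within 0.5 of the floor on all arrays and 1 was below the filter. The remaining 1, Ifnz, a member of the interferon zeta cluster, averaged 5.47 ± 0.39 in mutants and 5.38 ± 0.60 in controls (mean ± SD over 4 arrays each); its difference of 0.09 did not pass (limma adjusted p = 0.902).

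Among the receptor chains, Ifnar1 was the member nearest to the threshold. Ifnar1, the chain that docks TYK2, was represented by probe sets 1449026_at and 1442222_at. Probe set 1449026_at read 9.68, 9.33, 9.39 and 9.53 in mutants 1 to 4, against 9.77, 10.05, 9.95 and 9.96 in controls 1 to 4. All 4 mutant values were below all 4 control values, with a narrow gap between mutant 1 and control 1. The group means were 9.48 ± 0.16 in mutants and 9.93 ± 0.12 in controls, a difference of -0.45 (SE 0.109, 95% interval -0.70 to -0.20), or 0.732 of the control level (interval 0.615 to 0.871). It did not pass over all probe sets (limma adjusted p = 0.0875). Where each gene was tested by its brightest probe set, a fit in which 4.58% of genes passed, its limma adjusted p was 0.0553. Among all probe sets tested, 7.99% were lower in every mutant than in every control, 3.27% were higher in every mutant, and 64.6% had a difference below 0.

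The other Ifnar1 probe set differed in the same direction but with more scatter. Probe set 1442222_at read 6.60, 7.46, 6.75 and 6.74 in mutants, against 7.87, 6.78, 7.12 and 7.17 in controls. The groups overlapped, and the difference of -0.35 (interval -0.96 to 0.26) did not pass (limma adjusted p = 0.544); it was -0.14 without control 1 and -0.54 without mutant 2.

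Ifnar2, the chain that docks JAK1 and binds interferon most tightly, had 3 probe sets that did not move as one. Probe set 1451462_a_at read 10.64, 10.39, 10.66 and 10.75 in mutants, against 10.31, 10.73, 10.43 and 10.54 in controls, a difference of 0.11 (interval -0.18 to 0.39, limma adjusted p = 0.691). Probe set 1440169_x_at read 9.53, 9.50, 9.46 and 9.77 in mutants, against 9.43, 10.10, 10.12 and 9.92 in controls, a difference of -0.33 (interval -0.71 to 0.05, limma adjusted p = 0.360). The suffix _x_ marks a probe set that may bind other transcripts as well, and _a_ one that binds several transcripts of the same gene. The gene makes membrane-bound and soluble receptor forms, and the annotation used here does not say which of them each probe set reads. Probe set 1427691_a_at averaged 7.68 ± 0.20 in mutants and 7.95 ± 0.15 in controls, a difference of -0.27 (interval -0.56 to 0.03, limma adjusted p = 0.348). In all 3 the groups overlapped.

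The difference between the first and second of these Ifnar2 probe sets within an array was 1.05 ± 0.14 in mutants and 0.61 ± 0.23 in controls, with no overlap. The gap of 0.44 gave p = 0.0286 by exact permutation (two-sided, 70 ways to assign the arrays), the smallest p this design allows, and 0.114 after adjustment over the 4 genes compared in this way. The corresponding gaps were -0.10 for Ifnar1, 0.36 for Jak1 and -0.22 for Jak2, with adjusted exact permutation p-values of 0.648 to 0.714.

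Both chains form one receptor, and the difference between their probe sets was compared array by array. The within-array difference Ifnar1 minus Ifnar2, by the brightest probe set of each, was -1.13 ± 0.14 in mutants and -0.57 ± 0.09 in controls, and the groups did not overlap. The gap of -0.56 had an exact permutation p of 0.0286 and 0.171 after adjustment over the 6 member pairs compared. It rested on the choice of probe set: with all probe sets of each gene averaged, the gap was -0.24 (adjusted p = 0.557).

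Sequence upstream of both genes and of Irf1 is shown because Irf1 differed between the groups, as given further on, while the receptor genes did not pass. Each window holds the 250 bases before and 50 bases from the RefSeq start on GRCm38.p6, 5′ to 3′, all on the plus strand: Ifnar1 at chr16:91484965-91485264, Ifnar2 at chr16:91372533-91372832 and Irf1 at chr11:53769764-53770063. Capitals mark the letters TTCNNNGAA, the core of the gamma-activated site, an element of many promoters that respond to interferon gamma.
Ifnar1: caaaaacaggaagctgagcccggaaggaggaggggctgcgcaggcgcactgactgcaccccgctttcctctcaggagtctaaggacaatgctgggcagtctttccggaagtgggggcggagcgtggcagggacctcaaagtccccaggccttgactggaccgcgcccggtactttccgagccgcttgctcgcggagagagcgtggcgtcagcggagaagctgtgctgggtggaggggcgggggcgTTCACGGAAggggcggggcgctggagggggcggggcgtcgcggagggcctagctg
Ifnar2: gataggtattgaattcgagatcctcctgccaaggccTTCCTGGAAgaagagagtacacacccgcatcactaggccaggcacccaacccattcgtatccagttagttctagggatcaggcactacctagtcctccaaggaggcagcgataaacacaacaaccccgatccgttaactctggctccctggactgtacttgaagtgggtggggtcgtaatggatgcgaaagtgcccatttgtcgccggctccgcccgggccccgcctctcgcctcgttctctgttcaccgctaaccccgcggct
Irf1: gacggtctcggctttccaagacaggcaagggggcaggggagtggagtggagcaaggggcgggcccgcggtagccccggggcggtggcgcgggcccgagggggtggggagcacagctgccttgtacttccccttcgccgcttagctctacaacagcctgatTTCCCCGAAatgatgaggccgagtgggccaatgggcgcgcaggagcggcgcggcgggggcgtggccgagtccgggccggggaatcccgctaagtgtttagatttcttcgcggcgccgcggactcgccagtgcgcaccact
The match begins 5 bases before the start in Ifnar1, 214 before it in Ifnar2 and 90 before it in Irf1. These letters, which read the same on both strands, occurred in 3 of the 9 member windows in the RefSeq table (Ifnar1, Ifnar2 and Ifng) and in 8.30% of all 32851 windows of this length. The letters GAAA, any 2 bases and GAAA again, the core of the interferon-stimulated response element, searched on both strands, occurred in 0 of the 9 and in 3.44% of all windows. A match is a string of letters in a window, and its use by any factor in these vessels was not measured. No window shown holds both motifs, so their matches do not overlap.

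The interferon gamma receptor chains and Il10rb overlapped between the groups. Ifngr1, the chain that binds interferon gamma, read by probe set 1448167_at, was at 8.22, 8.07, 8.12 and 7.67 in mutants, against 8.10, 7.85, 7.69 and 8.03 in controls. Its difference of 0.10 (interval -0.23 to 0.44) did not pass (limma adjusted p = 0.754). Ifngr2, the chain that brings in JAK2, read by probe set 1423557_at, was at 9.19, 7.80, 7.63 and 7.46 in mutants, against 8.22, 7.73, 7.14 and 7.40 in controls. Mutant array 1 stood highest for Ifngr2, and the difference of 0.40 (interval -0.52 to 1.32, limma adjusted p = 0.648) was 0.01 without it. The other Ifngr2 probe set, 1423558_at, was not detected, at 2.18 to 2.23 on all arrays.

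Il10rb, by probe set 1419455_at, read 10.32, 10.03, 10.14 and 9.58 in mutants, against 10.08, 9.96, 9.88 and 9.97 in controls. The control arrays lay close together (SD 0.08) and the mutant arrays spread around them (SD 0.31), with a difference of 0.05 (interval -0.31 to 0.41, limma adjusted p = 0.899). A further Il10rb probe set, 1429959_at, stayed below the filter at 2.53 to 2.71. The within-array difference Ifngr1 minus Ifngr2 changed by -0.29 and Ifnar2 minus Il10rb by 0.06 on average, and the adjusted exact permutation p was 0.686 for the first and higher for the second.

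Other receptors of the same signalling type stayed below the filter or did not pass. Of 12 other class II cytokine receptor genes and their ligands, 10 had a probe set and 1 was tested, F3, the tissue factor that starts clotting, at 8.18 ± 0.62 in mutants and 7.55 ± 0.60 in controls (difference 0.63, limma adjusted p = 0.439). Among 30 genes for Jak3 and other receptors that use Janus kinases, 25 had a probe set, 15 were tested and 0 passed with limma. Of the 15, 6 had an unadjusted limma p under 0.05, against 16.3% of all probe sets tested. Osmr, Ghr and Lepr were lower in mutants, and Csf2ra, Csf2rb and Crlf2 were higher. With array weights, where 17.6% of all probe sets passed, 7 of the 15 did. The median difference of the 15 was 0.04. By the naming rule, Osmr, the oncostatin M receptor, averaged 10.15 ± 0.17 in mutants and 10.51 ± 0.06 in controls (limma adjusted p = 0.149), and Il6st, the shared gp130 chain, 9.91 ± 0.22 and 9.95 ± 0.06 (adjusted p = 0.889).

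In the mouse, 4 of the receptor genes lie together on chromosome 16, in the order Ifnar2, Il10rb, Ifnar1, Ifngr2 in the gene table of GRCm38.p6, with A930006K02Rik listed between Il10rb and Ifnar1. Of the 11 genes between them and up to 5 on each side, 9 were tested, 0 passed and 0 had an unadjusted p under 0.05 with limma. Their differences ran from -0.23 for Synj1 to 0.07 for Donson, and their lowest adjusted p was 0.538. The difference of Ifnar1, at -0.45, lay below the range of the neighbours' differences, with an interval of -0.70 to -0.20 that reaches into it. That of Ifngr2, at 0.40, lay above the range with an interval that spans it. Whether either differs from the neighbours was not tested.

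**Figure D2:**
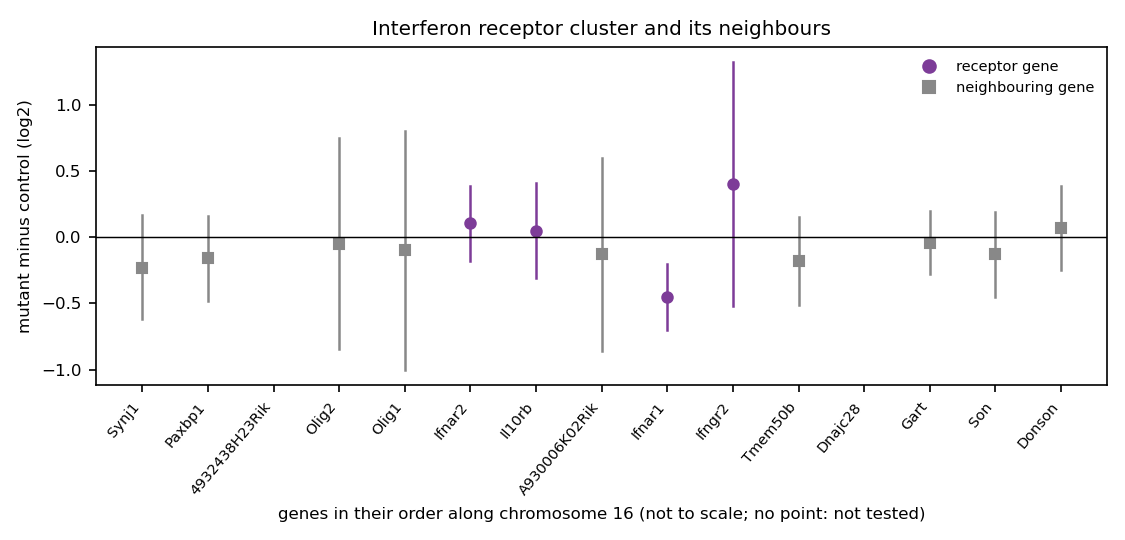
Differences between mutant and control arrays (log2, vertical axis) with 95% intervals for the genes of the receptor cluster on mouse chromosome 16 and their neighbours, in gene order (horizontal axis, not to scale), each by its brightest probe set; circles are receptor genes and squares neighbours. The neighbours lie between -0.23 and 0.07, Ifnar1 lies at -0.45, and untested genes have no point.

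Among the kinases, Tyk2 had the smallest p and did not pass. Tyk2, the kinase on IFNAR1, read 7.0, 6.81, 6.95 and 6.88 in mutants, against 7.09, 7.23, 7.55 and 7.30 in controls by probe set 1417306_at. Every mutant value was below every control value, and the means were 6.91 ± 0.09 and 7.29 ± 0.19. The difference was -0.38 (SE 0.114, interval -0.65 to -0.12), or 0.766 of the control level (limma adjusted p = 0.156). The other Tyk2 probe set, 1432576_at, was not detected, at 2.28 to 2.29. Ifnar1 and Tyk2 each had a probe set that was lower in all 4 mutants, and neither passed over all probe sets. These were 2 of the 14 member probe sets tested (14.3%), against 7.99% of all probe sets tested. The other tested Ifnar1 probe set overlapped between the groups.

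Jak2, which works with the interferon gamma receptor and with many growth factor and cytokine receptors, overlapped between the groups in both its probe sets. Probe set 1421066_at read 9.04, 9.21, 9.20 and 9.16 in mutants, against 9.28, 9.17, 9.38 and 9.30 in controls. The overlap was small, and the difference of -0.13 (interval -0.33 to 0.07, limma adjusted p = 0.475) had the narrowest interval among the members. Probe set 1421065_at averaged 7.19 ± 0.27 in mutants and 7.10 ± 0.48 in controls, a difference of 0.08 (interval -0.48 to 0.65, limma adjusted p = 0.887).

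Jak1, the kinase that both interferon receptors need, had 3 probe sets annotated to the same source sequence, and each gave a different picture. Probe set 1433803_at was even, at 8.64, 8.90, 8.78 and 8.85 in mutants, against 8.73, 8.60, 8.70 and 8.88 in controls (difference 0.06, interval -0.16 to 0.29, limma adjusted p = 0.780). Probe set 1433805_at read 9.96, 10.34, 10.0 and 9.12 in mutants, against 10.19, 9.18, 9.04 and 9.34 in controls. It was high on mutants 1 to 3 and on control 1, and low on mutant 4 and on controls 2 to 4. Mutant 4 and control 1 thus stood apart from the rest of their groups. Probe set 1433804_at read 7.14, 8.65, 7.67 and 8.42 in mutants, against 8.49, 8.57, 8.51 and 8.36 in controls, low on mutants 1 and 3 and level on the other arrays. The differences of 0.42 (interval -0.32 to 1.16) and -0.51 (interval -1.22 to 0.20) had opposite signs, and neither passed (limma adjusted p = 0.544 and 0.440). Both depended on single arrays: 1433805_at differed by 0.26 without mutant 2 and by 0.67 without control 1, and 1433804_at by -0.24 without mutant 1 and by -0.74 without mutant 2. Averaged over its probe sets, Jak1 differed by -0.01.

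The uneven Jak1 patterns were shared by other transcripts, which were searched for after the values had been seen. Over the 8 arrays, the 3 genes most like 1433805_at were Clic4 (Pearson r = 0.992), Exosc10 (r = 0.991) and Ppp2r2a (r = 0.985). Clic4, a chloride intracellular channel protein of endothelial and other cells, read 8.66, 9.09, 8.80 and 7.59 in mutants, against 9.01, 7.57, 7.46 and 7.63 in controls. Pecam1, whose protein was the handle for the beads, was looked up separately and had r = 0.962 with 1433805_at. It read 11.09, 10.96, 10.99 and 9.09 in mutants, against 11.27, 9.56, 9.29 and 9.53 in controls. Other endothelial markers did not all share this split. Cldn5 lacked it, at 14.54, 14.3, 14.45 and 14.29 in mutants, against 14.51, 14.65, 14.63 and 14.48 in controls. Tie1 followed it in part, at 9.99, 9.35, 9.89 and 8.97 in mutants, against 10.49, 9.47, 9.28 and 9.51 in controls. Like Tie1, Cdh5 and Esam were highest on control 1 (12.02 and 13.19) and lowest on mutant 4 (11.01 and 12.42). These endothelial markers were picked outside the naming rule. The 3 most like 1433804_at were Peak1 (r = 0.972), Msi2 (r = 0.971) and Azin1 (r = 0.970), and Msi2, an RNA-binding protein, read 8.07, 10.45, 9.28 and 10.07 in mutants, against 10.11, 10.0, 10.40 and 10.09 in controls. For the Ifngr2 probe set, with its high value on mutant 1, they were Cep70 (r = 0.965), Gen1 (r = 0.965) and Alg11 (r = 0.962). These points share their arrays and normalization, and the highest of many correlations over 8 arrays are high by selection. The 3′ minus 5′ beta-actin difference, a measure of RNA length on the array, was 1.00 to 1.08 in mutants and 0.94 to 1.03 in controls and did not separate the arrays that were high for 1433805_at.

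**Figure D3:**
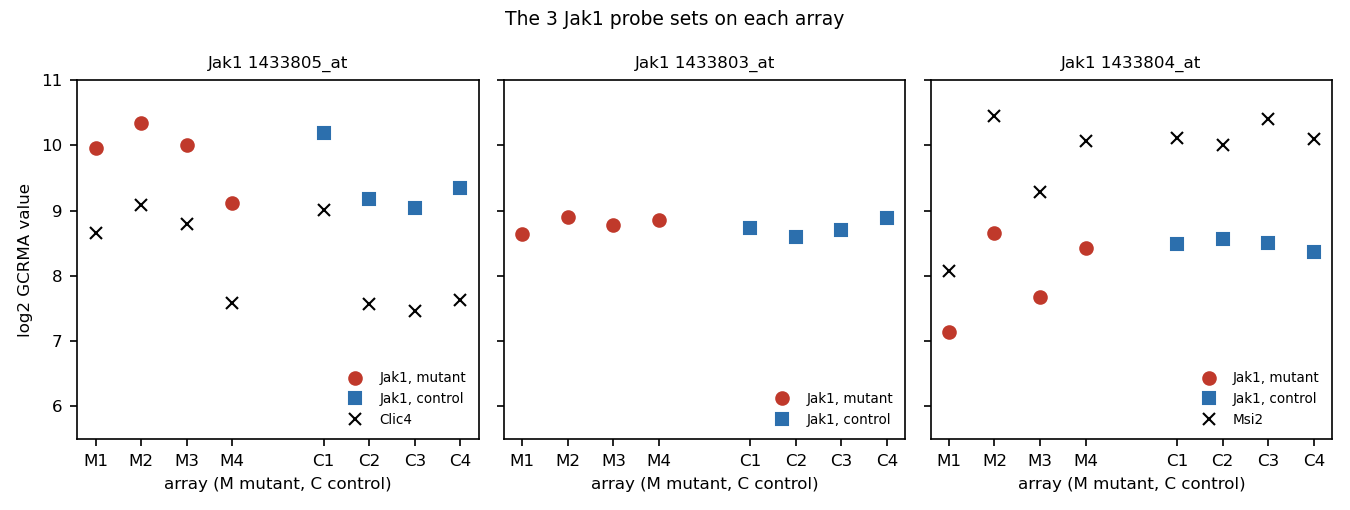
Deposited log2 GCRMA values (vertical axis) of the 3 Jak1 probe sets on mutant arrays M1 to M4 (circles) and control arrays C1 to C4 (squares), with crosses for Clic4 and Msi2, which were chosen after the values were seen for their likeness to the probe sets they are drawn with. Probe set 1433805_at and Clic4 are high on M1 to M3 and C1, 1433803_at is even, and 1433804_at and Msi2 are low on M1 and M3.

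Between kinases, the within-array differences changed by 0.55 for Jak1 minus Jak2, 0.80 for Jak1 minus Tyk2 and 0.25 for Jak2 minus Tyk2, each by the brightest probe set. Their exact permutation p-values were 0.257, 0.114 and 0.0571, or 0.386, 0.229 and 0.171 after adjustment over the 6 pairs. With the tested probe sets of each gene averaged, Jak1 minus Jak2 changed by 0.01 (adjusted exact permutation p = 0.943). Jak1 minus Tyk2 then changed by 0.37 and Jak2 minus Tyk2 by 0.36 (0.557 for both), with Tyk2 by its only tested probe set.

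Several genes whose products act after the kinases differed by more in the same RNA. Of 8 genes for STAT factors and Irf9, 7 had a probe set and 5 were tested. Irf9, the DNA-binding subunit of the complex that type I interferon forms in the nucleus, rose: it read 10.09, 10.0, 9.90 and 9.57 in mutants, against 8.24, 8.10, 8.14 and 7.59 in controls. Its difference of 1.87 (SE 0.173) was 3.66-fold (limma adjusted p = 0.000559), and it alone of the 5 passed, where 2.39% of all genes passed as higher by their brightest probe set and 1.09% as lower. Stat2, a subunit of the same complex, read 7.67, 7.95, 6.97 and 4.62 in mutants, against 5.07, 2.84, 3.59 and 3.96 in controls, and its difference of 2.94 did not pass (adjusted p = 0.112). Stat3 differed by 0.47 (limma adjusted p = 0.155), also the median of the 5. Without mutant array 4, 3 of the 5 passed, Stat2 and Stat3 with limma adjusted p-values of 0.0135 and 0.049, while Irf9 passed whichever array was left out. By the mean of its probe sets, Stat2 differed by 3.21 and passed (limma adjusted p = 0.0318).

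Of the 8 interferon regulatory factor genes Irf1 to Irf8, 7 had a probe set, 6 were tested, 3 rose and 0 fell, with a median difference of 1.24. Irf7, which drives type I interferon genes, averaged 10.90 ± 0.35 in mutants and 4.06 ± 0.38 in controls (difference 6.84, limma adjusted p = 1.34e-06), its control values lying around the filter. Irf1, whose promoter is printed with those of the receptors, averaged 9.18 ± 0.34 in mutants and 7.06 ± 0.32 in controls (difference 2.12, adjusted p = 0.000985). Irf8, a factor of microglia and other myeloid cells, averaged 7.31 ± 0.30 in mutants and 4.67 ± 0.53 in controls (difference 2.63, adjusted p = 0.00105). The mean of the 15 microglia and macrophage markers tested was also higher in every mutant than in every control, and its part in the Irf8 value was not tested.

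All 19 genes for inhibitors of the pathway had a probe set, 18 were tested, 3 rose and 0 fell, with a median difference of -0.16. With array weights, where 17.6% of all probe sets passed, 4 were higher and 5 lower. Usp18, which binds IFNAR2 and blocks its signal, averaged 12.24 ± 0.28 in mutants and 6.45 ± 0.70 in controls (difference 5.79, 55.3-fold, limma adjusted p = 2.61e-05). Socs2, an inhibitor best known for growth hormone signalling, averaged 11.08 ± 0.20 in mutants and 10.17 ± 0.07 in controls (difference 0.91, adjusted p = 0.0036). Ptprc, the leukocyte phosphatase CD45, averaged 7.40 ± 0.48 in mutants and 5.56 ± 0.68 in controls (difference 1.84, adjusted p = 0.0392), but it passed in only 2 of the 8 fits that left out an array, with limma adjusted p-values of 0.0308 to 0.141, and lost its call without mutant 1, 2 or 3 or control 2, 3 or 4. By the mean of their probe sets, Socs2 differed by 0.47 and Ptprc by 0.92, and both passed (limma adjusted p = 0.0118 and 0.0299). Socs1, the inhibitor that acts on the Janus kinases, averaged 2.61 in mutants and 2.18 in controls, below the filter in both.

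**Figure D4:**
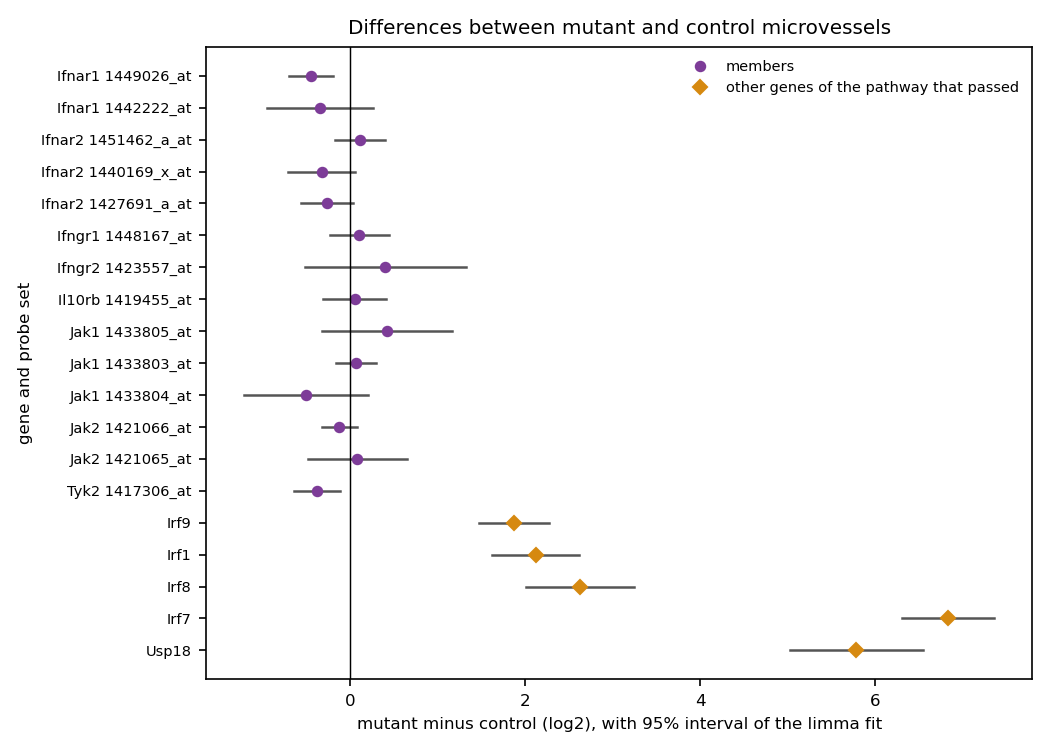
Differences between mutant and control microvessels (mutant minus control, log2, horizontal axis) with 95% intervals for the 14 tested member probe sets (circles) and for Irf9, Irf1, Irf8, Irf7 and Usp18 (diamonds), which passed the test. The members lie between -0.51 and 0.42, and the 5 other genes between 1.87 and 6.84. Socs2 and Ptprc, which also passed with smaller differences of 0.91 and 1.84, are not drawn. Pathway genes that did not pass are not drawn either.

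Markers of some other cells moved with the groups. Of 15 tested microglia and macrophage markers, out of 20 listed, 10 rose and 0 fell (6 rose with the replicate number as a block), and their mean ran from 8.92 to 9.82 on mutant arrays and from 7.11 to 8.01 on control arrays. Ctss, C1qa and Fcer1g, which code for a lysosomal protease, a complement subunit and an Fc receptor chain, differed by 2.26, 2.38 and 2.18 (limma adjusted p = 0.000849, 0.00102 and 0.00137). Aif1, Cx3cr1 and Csf1r also rose, by 3.31, 1.46 and 1.06 (limma adjusted p = 0.00329, 0.00679 and 0.00705). All 15 tested markers had an unadjusted limma p under 0.05, against 16.3% of all probe sets tested. Of the markers not tested, Tmem119, Trem2 and Spi1 were below the filter, and Itgam was at the floor. Of 12 endothelial markers 0 rose and 1 fell: Erg, an endothelial transcription factor, dropped by 0.63 (adjusted p = 0.00973), and the list mean ran from 11.30 to 11.79 on mutant arrays and from 11.68 to 12.05 on control arrays. Of 12 pericyte and mural markers 0 rose and 1 fell: Pdgfrb itself dropped by 1.01 by its brightest probe set (adjusted p = 0.00232), and the list mean ran from 10.52 to 10.98 on mutant arrays and from 10.55 to 11.17 on control arrays. The Pdgfrb level does not check the knock-in, which changes the protein. By the mean of its probe sets Pdgfrb differed by -0.46 and did not pass (limma adjusted p = 0.144), and Higd1b, another pericyte marker, passed as higher (0.85, 0.0402). Without control array 2, 3 mural markers passed, 2 of them higher. In the whole fragments, fewer cells of a type and less RNA per cell cannot be told apart, and the part of the cell mix in the Ifnar1 and Tyk2 values was not tested.

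Markers of lymphoid cells and plasmacytoid dendritic cells, which can make interferons, were mostly dim, with Gzma and Tcf4 among the exceptions. Of 15 T and NK cell markers, 13 had a probe set. Of these, 9 were at the floor, among them Cd3e, Cd3g, Cd3d, Ncr1 and Prf1. The other 4 were not tested, as they exceeded a value of 4 on too few arrays or, for Nkg7, on none. Among the 4, Gzma, a protease of cytotoxic lymphocytes, read 8.92, 8.0, 8.07 and 2.58 in mutants, against 2.30, 2.22, 2.22 and 2.53 in controls. It was high on mutants 1 to 3, was singled out after its values were seen, and its part in any result was not tested. Thy1, also on neurons, read 3.96 to 4.93 in mutants and 3.92 to 3.99 in controls. Of 8 plasmacytoid dendritic cell markers, 7 had a probe set, 2 were tested (Tcf4 and Ccr9) and 0 passed or had an unadjusted p under 0.05 with limma. Tcf4 averaged 11.94 in mutants and 12.01 in controls, and Ccr9 5.20 and 4.72. Siglech, a defining marker, was below the filter. Of the 10 neutrophil and monocyte markers, 9 had a probe set, 4 were tested, and 0 passed or had an unadjusted p under 0.05 with limma. Neuron markers (10 tested), astrocyte and radial glia markers (10 tested) and erythroid markers (2 tested) gave 0 calls with limma, with 2, 0 and 0 at an unadjusted p under 0.05; without mutant array 1, 1 astrocyte marker passed.

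Pearson correlations over all probe sets were 0.988 to 0.995 within the groups and 0.977 to 0.991 between them, and 38.7% to 40.7% of probe sets on mutant arrays and 40.0% to 41.0% on control arrays lay within 0.5 of the floor. Transcripts of Y-linked genes were at a high level on mutants 1, 3 and 4 and on controls 2 and 3, so both groups mixed the sexes.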

How the data were processed

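RNA of 8 brain microvessel preparations was measured on 1-colour arrays, from 6 ug of total RNA each per the labels' protocols. The authors deposited 1 log2 value per probe set and array. They used GCRMA, per the submitters' processing notes, and its version is not given in the sources used here. The log2 scale was inferred from the range, 2.18 to 16.49. GCRMA corrects background by probe sequence and normalizes by quantiles, so dim probe sets collect at a floor, and a change of most transcripts in one direction would be hidden. Arrays have no read depth; their number, 4 per group, limits the precision.

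Probe sets were named from the platform annotation: 34958 had 1 symbol, 932 had several and 9211 had none. Probe sets above 4 on at least 4 arrays (22310, 49.5%) were fitted with limma 3.58.1 (lmFit, eBayes; R 4.3.3), mutant against control, with no covariate and Benjamini-Hochberg adjustment over all of them, with a threshold of 0.05. Within-array differences were tested with exact two-sided permutations in scipy 1.17.1. A list gene was represented by its brightest probe set. The gene-level mean took all probe sets of a gene, also those at the floor, while the pair comparisons averaged only the tested ones. The members and lists were chosen with earlier results of these data known. From a pathway list up to 4 genes with the smallest p that passed were named, or the 2 brightest where none did; up to 3 from a marker list. No label gives a litter, preparation day or scan date, and no batch was tested. The fit was tested on simulated data. Alternatives were other filters, quantile normalization or centring again, gene-level fits, a replicate block, array weights, a Y-linked covariate, trend and robust eBayes, a threshold of 0.01, and each array left out in turn; a covariate from Jak1-like probe sets and the probe set pairs' alternatives were added after seeing the data.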

Additional observations from a re-analysis of the deposited data

How the results depend on the processing

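No member passed under 19 of the 20 settings. With array weights 3 did, Ifnar1 1449026_at (-0.54, limma adjusted p = 0.00273), Ifnar2 1440169_x_at (-0.47, 0.0252) and Tyk2 (-0.41, 0.0179). There 3937 of all probe sets passed (17.6%), and mutant 3 had a weight of 6.06 where the others had 0.402 to 2.52. Under the other settings the lowest member adjusted p ran from 0.0553 to 0.313. Leaving out single arrays gave 0 member calls, with Ifnar1 1449026_at at -0.52 to -0.40 and Tyk2 at -0.45 to -0.30. Signs changed as follows, with no call: by the mean of a gene's probe sets, Ifnar2 -0.16 and Jak1 -0.01; without mutant 1, Il10rb -0.05 (range over single arrays left out -0.05 to 0.19); without control 2 or 3, Jak2 1421065_at -0.04 and -0.05 (range -0.05 to 0.29); with the covariate from 20 probe sets like Jak1 1433805_at, Ifngr1 -0.04, Il10rb -0.08 and Jak2 1421065_at -0.13. For the pairs, Ifnar2 minus Il10rb was -0.21 by the mean of the tested probe sets and -0.13 to 0.15 over single arrays left out. Over single arrays left out, Ifngr1 minus Ifngr2 was -0.46 to 0.03, and the Ifnar1 probe set pair -0.37 to 0.14. The cause of these changes was not tested.

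The lists held 19 calls in all, 18 to 22 without single arrays, 13 with the replicate block, where 4 microglia markers, Ptprc and Erg lost their calls (the last 2 with adjusted p = 0.187 and 0.107), and 48 with array weights. With weights 4 inhibitor genes were higher and 5 lower, and of the other JAK-linked receptors and of the mural markers 4 were higher and 3 lower each. Same-numbered arrays deviated with correlations of -0.11, -0.53, -0.22 and 0.33, and differently numbered arrays with -0.47 to 0.48. Whether the numbers pair the brains cannot be told from these values or from the labels. With the replicate number as a block, calls over all probe sets went to 303, against 586, and members stayed at 0. Ifnar1 1449026_at then had a limma adjusted p of 0.313. All-probe-set calls were 305 without mutant 3, 367 to 376 without mutant 1, mutant 2, control 3 or control 4, 414 with no filter and 322 at a threshold of 0.01. Quantile normalization and centring again moved the median difference of all probe sets to -0.04 and -0.11. The median half-width of the 95% intervals, which are not adjusted for the number of tests, was 0.36. Smaller differences are at the limit of what 4 arrays per group resolve. After adjustment larger ones can also fail, as did Ifnar1 1449026_at at -0.45 and Tyk2 at -0.38.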

Other observations

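Beside Gzma, 2 more genes of cytotoxic lymphocytes were above the floor on some mutant arrays. Gzmb, a related protease, read 4.82, 3.55, 2.19 and 2.19 in mutants and 2.19 to 2.20 in controls, and Nkg7, a granule protein of the same cells, 3.14, 2.22, 3.62 and 2.19 in mutants and 2.18 to 2.20 in controls. Both genes were singled out after their values were seen. Ifng was at the floor on these arrays, at 2.18 to 2.19, as given above. Of the other T and NK cell markers, Cd3e, Cd3g, Cd3d, Cd8b1 and Ncr1 read 2.18 on all 8 arrays. Prf1, also of cytotoxic lymphocytes, read 2.31 to 2.38.

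The mean of the 20 probe sets most like Jak1 1433805_at (r from 0.973 to 0.992, chosen after the values were seen) was 9.42, 9.64, 9.50 and 8.54 in mutants, against 9.69, 8.55, 8.45 and 8.73 in controls. With it as a covariate, 679 of 22310 probe sets passed (3.04%), Ifnar1 1449026_at differed by -0.39 (limma adjusted p = 0.116), Tyk2 by -0.32 (0.184) and Ifnar1 1442222_at by -0.59. Without the covariate, Ifnar1 1442222_at differed by -0.35. What the 4 arrays with high values share was not tested.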
